A study of Mus musculus with 9 samples.

Results

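Intraflagellar transport (IFT) and BBSome genes were measured in olfactory sensory neurons, the odorant-detecting cells of the nose, sorted by the odorant receptor they carry. The set holds 39 named genes of the 55291 in the deposited table: 6 of the IFT-A complex, 15 of IFT-B (9 core and 6 peripheral), 7 subunits of the BBSome, 3 genes for its assembly and recruitment, 6 motor subunits, and 2 genes of ciliary entry and membrane signalling. It was taken from a list of names, drawn up with earlier results of these data known. Neurons came from mice with the genotype Olfr1507-IRES-GFP, Olfr73-IRES-GFP or Olfr160-IRES-mCherry, in which the receptor transcript also encodes a fluorescent protein. The authors dissociated the main olfactory epithelium with papain and collected bright, DAPI-low cells, and polyadenylated RNA was sequenced from 3 libraries per group, 9 in all. The groups are called by their tagged receptor. Age, sex, background strain and whether the tagged allele was on 1 or both chromosomes are not given in the sources used here, and neither is whether libraries came from separate animals, so the spread behind each p-value is that among these 9 libraries and may be technical in part or whole. The design text speaks of duplicates, while the tables hold 3 libraries per group.

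A cilium makes no protein of its own, and its parts are carried in and out along the microtubules of the axoneme. IFT-B trains move outward with kinesin-2 motors, IFT-A with the dynein-2 motor serves the way back and the entry of membrane proteins, and the BBSome is a coat that rides on the trains and moves receptors across the ciliary base. The neurons studied here hold their receptors and transduction proteins in long cilia on the dendritic knob, and mice that lack BBSome subunits or IFT88 have few such cilia and a poor sense of smell.

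Libraries held 17212807 to 36230606 expected counts. The tagged receptor took 85.1% to 94.7% of all odorant receptor counts in the Olfr1507 libraries, 22.8% to 32.8% in the Olfr73 libraries and 2.08% to 10.1% in the Olfr160 libraries. Omp, the marker of mature olfactory neurons, stood at 21754, 18813 and 20675 TPM in Olfr1507, 14812, 16492 and 15508 TPM in Olfr73 and 8105, 10882 and 13117 TPM in Olfr160 (TPM is a measure of RNA abundance scaled for transcript length and library size). The 11 markers of sustentacular and gland cells summed to 0.0216% to 0.0311% of counts in Olfr1507, 0.284% to 0.495% in Olfr73 and 1.5% to 2.88% in Olfr160, and all 11 were lower in Olfr1507 than in Olfr160. Markers of immune cells and of basal cells followed the same order of groups, with the immune marker Csf1r listed at 0 in Olfr1507. Markers of immature neurons summed to 0.0552% to 0.0613% in Olfr1507, 0.103% to 0.126% in Olfr73 and 0.18% to 0.197% in Olfr160. Of 8 such markers, 4 were lower in Olfr1507 than in Olfr160 (Gng8 at -2.61, Dpysl3 at -2.56, Stmn1 at -1.86 and Tubb3 at -1.72), and Crmp1 and Dbn1 were higher, at 0.87 and 0.59. These values are on the log2 scale under TMM, the standard scaling of edgeR, where 27.7% of all genes tested were lower and 20.7% higher. Scaled to olfactory transduction genes all 8 were lower, as were 83.4% of all genes. The groups differed in markers of other cells and of neuronal maturity as well as in receptor, and the part of these differences in the results below was not tested.

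The 39 genes spanned a wide range of level, and most were abundant. Their median was 134.7 TPM in Olfr1507, 132.9 TPM in Olfr73 and 102.0 TPM in Olfr160, taken over the means of the genes. Together they summed to 6260 ± 135 TPM in Olfr1507, 4801 ± 201 TPM in Olfr73 and 3779 ± 432 TPM in Olfr160 (mean ± SD, n = 3 libraries each). In bulk RNA, fewer cells of a type and less RNA per cell cannot be told apart. Within each complex the subunits did not stand at a common level. Ift43, a small subunit of IFT-A, averaged 461 TPM over the 9 libraries, and Wdr35, Ift122, Ift140 and Wdr19 averaged 167, 153, 97.7 and 77.0 TPM. Ttc21b, the IFT139 subunit, averaged 3.12 TPM, below every other IFT-A gene in every library. A like gap separated Ift57, a peripheral IFT-B subunit, at 2.35 TPM (1.21 to 3.28 over the libraries), from Traf3ip1 at 36.4, Cluap1 at 39.1, Ift172 at 129, Ift20 at 142 and Ift80 at 199 TPM. The 9 core IFT-B genes ran from Ttc26 at 51.3 TPM to Ttc30b at 254 TPM, and the 7 BBSome genes from Bbs1 at 37.2 TPM to Ttc8 at 234 TPM. The chaperonin-like assembly genes Bbs12 and Bbs10 averaged 12.8 and 11.1 TPM, while Arl6, the GTPase that brings the BBSome to membranes, averaged 296 TPM. Among motors, Kif3a averaged 247 TPM, its partners Kifap3 and Kif3b 51.3 and 40.6 TPM, and Kif17 15.7 TPM. TPM depend on the transcript models used, which include short transcripts for several of these genes. The counts and TPM of Dync2h1 corresponded to an effective length of 4341 to 4603 bases in the group means, against 14264 bases for its longest model. For Ift43 that length was 316 to 346 bases over the libraries, below the 372 bases of its shortest model. In expected counts, which are not scaled for length, Ift43 lay below every other IFT-A gene but Ttc21b in every library.

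**Figure D1:**
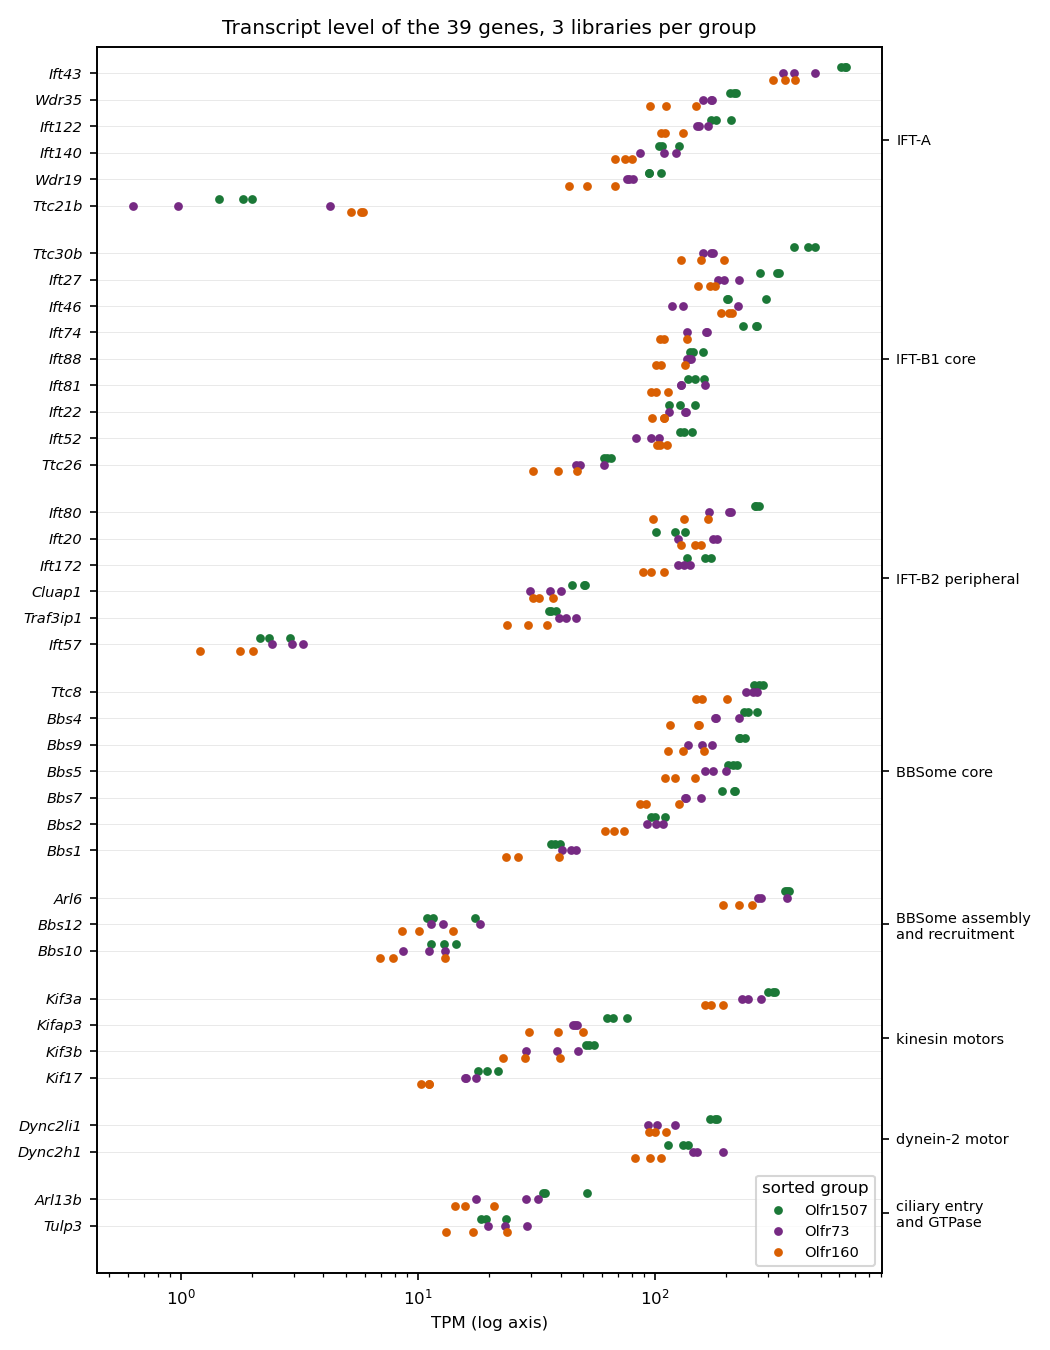
TPM on a log axis for each of the 39 genes, grouped by role and ordered by mean within a role. Each point is a library, with Olfr1507 at the top of each row, Olfr73 in the middle and Olfr160 at the bottom; Ttc21b and Ift57 lie below 6 TPM, apart from the other subunits of their complexes, and most other genes lie highest in Olfr1507.

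Under TMM scaling, most IFT and BBSome genes were higher in Olfr1507 than in Olfr160, with Olfr73 in between, and this direction turned under scaling to olfactory transduction genes, where 30 of the 39 were lower, as were 83.4% of all genes. Expected counts were tested with edgeR, and TMM sets libraries to a common level by genes assumed not to change, and a gene was called at an adjusted p under 0.05 over the 16399 genes tested, which include all 39. Of the 39 genes, 33 were higher and 0 lower in Olfr1507 than in Olfr160, against 20.7% of all genes tested that were higher and 27.7% that were lower. The counts of lower genes under transduction-list scaling, given beside each role group, are to be read against that 83.4%. The median log2 fold change was 0.96, or 1.94-fold, against -0.14 for all genes. For Olfr1507 over Olfr73, 24 were higher and 0 lower (14.5% and 19.9% of all genes), with a median of 0.48 against -0.15 for all genes. For Olfr73 over Olfr160, 17 were higher and 0 lower (7.45% and 10.5% of all genes), with a median of 0.45 against -0.01. The test over the 3 groups called 33 of the 39, against 50.8% of all genes. The comparisons share libraries, so they are given side by side and are not independent. In normalised CPM, counts scaled to library size and by the same factors, every Olfr1507 library was above every Olfr160 library for 34 genes (29.0% of all genes tested), above every Olfr73 library for 30 (22.7%), and every Olfr73 library above every Olfr160 library for 24 (17.2%). In 33 genes the group means fell in the order Olfr1507, Olfr73, Olfr160 (22.9% of all genes). The genes called in all 3 comparisons were Ift122, Wdr19 and Wdr35 of IFT-A, Ift74 and Ift172 of IFT-B, Bbs1, Bbs2, Bbs4, Bbs5 and Bbs7 of the BBSome, and the motors Kif3a and Kif17. Of these 12, Bbs1 alone kept its call for Olfr73 over Olfr160 in every fit with a library left out, and with RLE size factors Wdr35, Ift74, Ift172, Bbs4 and Bbs7 lost that call. Ttc21b, Ift20, Ift57, Bbs10, Bbs12 and Tulp3 were called in none.

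**Figure D2:**
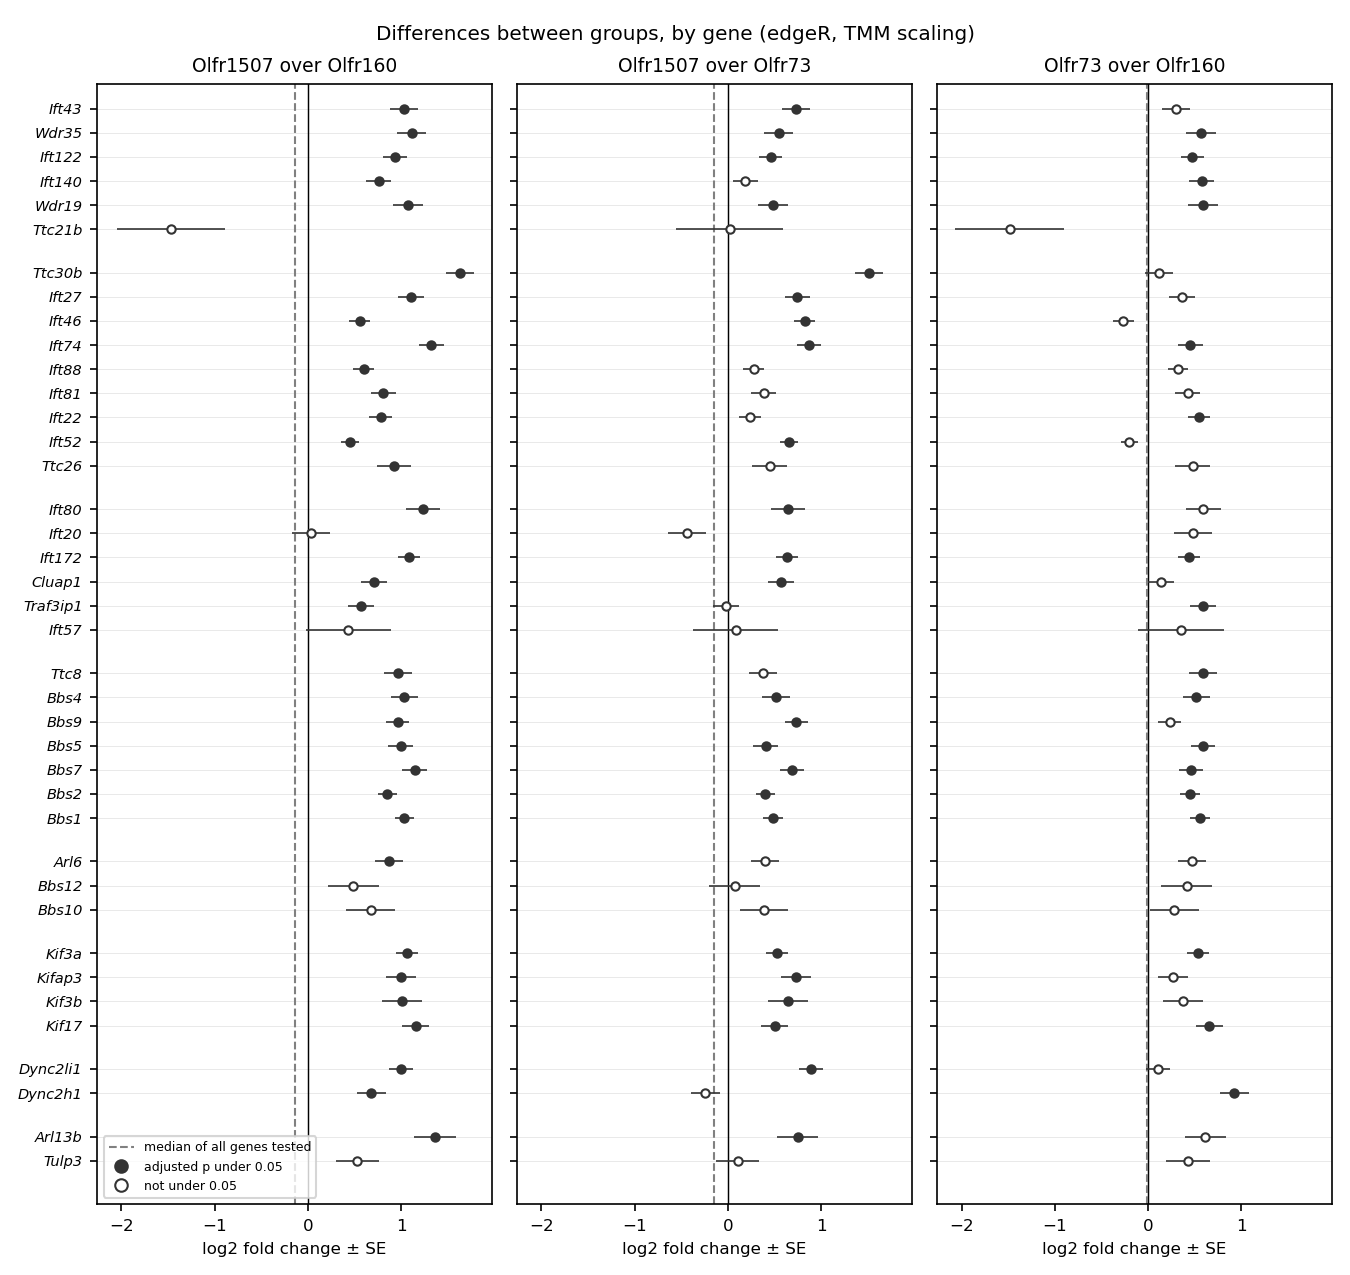
Log2 fold changes with their standard errors for the 39 genes, 1 panel per comparison, under TMM scaling. Filled points have an edgeR adjusted p under 0.05 and the dashed line is the median of all genes tested; the filled points of the left panel lie between 0.45 and 1.63, and every filled point in the 3 panels is above 0, a direction that turns for most of them with transduction-list scaling.

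In the IFT-A complex, 5 of 6 genes were higher in Olfr1507 than in Olfr160 (median 0.98; with transduction-list scaling 0 higher and 5 lower), 4 were higher in Olfr1507 than in Olfr73 (median 0.47), and 4 were higher in Olfr73 than in Olfr160 (median 0.52). Ift43, on chromosome 12 from 86082541 to 86162459 (mm10), had 612, 636 and 640.5 TPM in Olfr1507, 347, 387 and 471 TPM in Olfr73 and 315, 353 and 389 TPM in Olfr160. Its Olfr1507 libraries were above all others, while those of Olfr73 and Olfr160 overlapped. The log2 fold change was 1.03 ± 0.15 for Olfr1507 over Olfr160 (SE, edgeR adjusted p = 0.000609), 0.73 ± 0.15 over Olfr73 (0.00571), and 0.30 ± 0.15 for Olfr73 over Olfr160 (0.194). Wdr35, the IFT121 subunit, on chromosome 12 from 8973892 to 9028847, had 221, 207 and 215 TPM in Olfr1507, 159.5, 174 and 172 TPM in Olfr73 and 95.7, 111 and 149.6 TPM in Olfr160. Its groups did not overlap, and the differences were 1.11 ± 0.16 (edgeR adjusted p = 0.000579), 0.54 ± 0.16 (0.0273) and 0.57 ± 0.16 (0.0386) in the same order of comparisons. The other core subunits Ift122, Wdr19 and Ift140 differed by 0.93, 1.07 and 0.76 for Olfr1507 over Olfr160, all past the threshold. Ift140 was not called for Olfr1507 over Olfr73, at 0.18 ± 0.14 (edgeR adjusted p = 0.314).

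Ttc21b alone among the 39 genes had its Olfr1507 libraries below those of Olfr160. It is a retrograde IFT gene known for kidney and skeletal ciliopathies, and lies on chromosome 2 from 66184327 to 66256617. Its values were 1.45, 2.01 and 1.84 TPM in Olfr1507, 4.27, 0.980 and 0.630 TPM in Olfr73 and 5.77, 5.89 and 5.22 TPM in Olfr160. The Olfr1507 and Olfr160 libraries did not overlap, and Olfr73 library 1 stood far above the other libraries of its group. The log2 fold change of -1.47 ± 0.58 for Olfr1507 over Olfr160 missed the threshold (edgeR adjusted p = 0.0623), and it passed without Olfr73 library 1 (0.00344) or Olfr73 library 3 (0.0240), with only the 6 libraries of the comparison (0.00135), with DESeq2 (0.0209), with library size alone (0.0288), with transduction-list scaling (0.00193), with a filter of 5 CPM in 3 libraries (0.0434), and with limma on log2(TPM + 1) (0.0271) or log2(TPM + 0.1) (0.045). In edgeR it missed the threshold with RLE size factors (adjusted p = 0.052), without Olfr genes (0.0515) and with no low-count filter (0.0663). It also missed with the replicate number as a block (0.0825) and without Olfr73 library 2 (0.0553). Leaving out any library of Olfr1507 or Olfr160 gave an edgeR adjusted p of 0.105 to 0.171.

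All 9 listed core genes of IFT-B were higher in Olfr1507 than in Olfr160 (median 0.80, with transduction-list scaling 0 higher and 6 lower). Of the 9, 5 were higher in Olfr1507 than in Olfr73 (median 0.65) and 2 in Olfr73 than in Olfr160 (median 0.36). Hspb11, a further core gene outside the set, was not called for Olfr1507 over Olfr160, at 0.68 ± 0.29 (edgeR adjusted p = 0.08). Nor was it called over Olfr73, at 0.55 ± 0.29 (edgeR adjusted p = 0.164). Ttc30b, the IFT70 subunit, had the largest difference of the 39 genes. It lies on chromosome 2 from 75935849 to 75938585 with a single transcript in the table, and had 472, 441 and 385 TPM in Olfr1507, 172, 175 and 159.8 TPM in Olfr73 and 129, 157 and 197 TPM in Olfr160. Every Olfr1507 library was above every other, and the libraries of the other 2 groups overlapped. The log2 fold change was 1.63 ± 0.15 for Olfr1507 over Olfr160, or 3.09-fold (edgeR adjusted p = 4.84e-05), 1.51 ± 0.15 over Olfr73 (0.000167), and 0.12 ± 0.15 for Olfr73 over Olfr160 (0.607). Ttc30b has close copies, Ttc30a1 and Ttc30a2, with 94.8% and 94.9% of coding bases alike, so reads may be split between them and its value is uncertain. Ttc30a1 was at 23.99, 20.8 and 20.2 TPM in Olfr1507, 8.54, 15.1 and 17.7 TPM in Olfr73 and 13.3, 13.96 and 12.99 TPM in Olfr160, and was also higher in Olfr1507 than in Olfr160, by 0.89 ± 0.24 (edgeR adjusted p = 0.0133). Ttc30a2 was at 2.25 TPM in Olfr73 library 3 and at most 0.26 TPM in the others.

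Ift74, which with Ift81 forms the tubulin-binding module of the train, had 236, 267 and 271 TPM in Olfr1507, 165, 137 and 165 TPM in Olfr73 and 105, 109 and 136 TPM in Olfr160. The groups did not overlap, although Olfr73 library 2 was barely above Olfr160 library 3, and the difference of Olfr1507 over Olfr160 was 1.32 ± 0.13 (edgeR adjusted p = 7.52e-05). Its partner Ift81 differed by 0.80, also past the threshold. Ift27, a small GTPase-like subunit that links the train to the BBSome, differed by 1.10, Ttc26 by 0.92, and the GTPase-like Ift22 by 0.78. The smallest differences of the core were those of Ift52 (0.45), Ift46 (0.56) and Ift88 (0.60), which bind one another in the train; all 3 lost the call with library size alone. Ift46 had 203, 201 and 295 TPM in Olfr1507, 118, 225 and 131 TPM in Olfr73 and 211, 189 and 205 TPM in Olfr160. Its Olfr1507 and Olfr160 libraries overlapped in TPM, and both limma fits on TPM lost its call. Ift52, on chromosome 2 from 163017354 to 163046141, had 144, 127 and 133 TPM in Olfr1507, 95.9, 83.3 and 104 TPM in Olfr73 and 112, 105 and 102 TPM in Olfr160. The Olfr1507 libraries were above all others, and those of Olfr73 and Olfr160 overlapped, with a negative difference between them (-0.20 ± 0.09, edgeR adjusted p = 0.165) in place of the positive one seen for most genes. Ift46 likewise gave -0.26 ± 0.11 for Olfr73 over Olfr160 (edgeR adjusted p = 0.133).

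Of the 6 peripheral IFT-B genes, 4 were higher in Olfr1507 than in Olfr160 (median 0.63; with transduction-list scaling 0 higher and 4 lower), 3 were higher in Olfr1507 than in Olfr73 (median 0.32) and 2 in Olfr73 than in Olfr160 (median 0.46). Ift80, on chromosome 3 from 68892499 to 69004570, had 276, 267 and 263 TPM in Olfr1507, 169, 205 and 209.6 TPM in Olfr73 and 98.3, 133 and 167 TPM in Olfr160. Its groups did not overlap, and the difference of Olfr1507 over Olfr160 was 1.23 ± 0.19 (edgeR adjusted p = 0.000747). Ift20, the subunit that is also found at the Golgi and takes part in sorting cargo for the cilium, had 101, 122 and 134 TPM in Olfr1507, 182, 125 and 176 TPM in Olfr73 and 156, 129 and 148 TPM in Olfr160. All its groups overlapped, with the lowest values in Olfr1507, and its differences were 0.03 ± 0.20 for Olfr1507 over Olfr160 (edgeR adjusted p = 0.905), -0.44 ± 0.20 over Olfr73 (0.117), and 0.48 ± 0.20 for Olfr73 over Olfr160 (0.134). Ift172, a large subunit at the train tip, differed by 1.08 for Olfr1507 over Olfr160, Cluap1 (IFT38) by 0.70 and Traf3ip1 (IFT54) by 0.57. Traf3ip1 was called for Olfr73 over Olfr160 as well, at 0.59 ± 0.14 (edgeR adjusted p = 0.0233), but stood at -0.02 ± 0.14 for Olfr1507 over Olfr73 (0.921). Ift57 differed by 0.43 ± 0.46 (edgeR adjusted p = 0.46) at its low level.

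In counts under TMM, the 7 listed subunits of the BBSome differed by like amounts between Olfr1507 and Olfr160. All 7 were higher in Olfr1507 than in Olfr160, with log2 fold changes of 0.85 to 1.14 (median 0.99, with transduction-list scaling 0 higher and 6 lower). Of the 7, 6 were higher in Olfr1507 than in Olfr73 (median 0.48) and 6 in Olfr73 than in Olfr160 (median 0.52). Bbip1, a further subunit outside the set, lay below that range for Olfr1507 over Olfr160, at 0.54 ± 0.12 (edgeR adjusted p = 0.00523). Over Olfr73 it was not called, at 0.28 ± 0.12 (edgeR adjusted p = 0.0961). Ttc8, also called BBS8, had 286, 262 and 274 TPM in Olfr1507, 243, 259 and 269 TPM in Olfr73 and 149, 158 and 202 TPM in Olfr160. In TPM, Olfr1507 and Olfr73 overlapped, and both lay above every Olfr160 library. The difference of Olfr1507 over Olfr160 was 0.96 ± 0.15 (edgeR adjusted p = 0.000827). Bbs7, on chromosome 3 from 36573142 to 36613477, had 192, 218 and 215 TPM in Olfr1507, 156, 134 and 136 TPM in Olfr73 and 91.8, 86.7 and 127 TPM in Olfr160, with no overlap between groups and a difference of 1.14 ± 0.13 (edgeR adjusted p = 0.00018). Bbs2, the subunit with the smallest difference, had 111, 96.3 and 100.4 TPM in Olfr1507, 108, 101 and 92.4 TPM in Olfr73 and 67.3, 61.8 and 74.2 TPM in Olfr160. Its Olfr1507 and Olfr73 libraries overlapped in TPM, and the difference of Olfr1507 over Olfr160 was 0.85 ± 0.11 (edgeR adjusted p = 0.000243). Bbs4, Bbs1, Bbs5 and Bbs9 differed by 1.03, 1.03, 0.99 and 0.96. In TPM, the Olfr1507 and Olfr160 libraries of Bbs1 overlapped, and both limma fits on TPM lost its call. Those fits also turned the sign of Bbs1 for Olfr1507 over Olfr73.

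Of the helpers of the BBSome, Arl6 was called higher with TMM and the chaperonin-like genes were not called, while with transduction-list scaling all 3 were lower. Arl6 had 353, 361 and 366 TPM in Olfr1507, 271, 279 and 360.4 TPM in Olfr73 and 193, 226 and 256 TPM in Olfr160. Every Olfr1507 and Olfr73 library was above every Olfr160 library, and the difference of Olfr1507 over Olfr160 was 0.86 ± 0.15 (edgeR adjusted p = 0.00154). Bbs12 had 11.6, 10.98 and 17.4 TPM in Olfr1507, 18.3, 12.8 and 11.4 TPM in Olfr73 and 10.1, 8.57 and 14.2 TPM in Olfr160, with every pair of groups overlapping. It differed by 0.48 ± 0.27 (edgeR adjusted p = 0.172), and Bbs10 by 0.67 ± 0.26 (0.0572). Exons of Cetn4 overlap those of Bbs12 on the opposite strand, and the counting is not stated to use strand.

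All 4 listed kinesin-2 genes were higher in Olfr1507 than in Olfr160 (median 1.03, with transduction-list scaling 0 higher and 3 lower). All 4 were also higher in Olfr1507 than in Olfr73 (median 0.58), and 2 in Olfr73 than in Olfr160 (median 0.45). Kif3c, a further kinesin-2 gene outside the set, was higher in Olfr1507 than in Olfr160, by 0.94 ± 0.17 (edgeR adjusted p = 0.00173). Over Olfr73 it was not called, at 0.28 ± 0.16 (edgeR adjusted p = 0.209). Kif3a, a motor subunit of heterotrimeric kinesin-2, had 299, 315 and 321 TPM in Olfr1507, 248, 280.1 and 234 TPM in Olfr73 and 172, 162 and 193 TPM in Olfr160. Its groups did not overlap, and the difference of Olfr1507 over Olfr160 was 1.06 ± 0.12 (edgeR adjusted p = 0.00015). Kif3b, its motor partner, and Kifap3, the accessory subunit that binds both, gave 1.01 and 0.99. Kif17, the homodimeric kinesin-2, on chromosome 4 from 138250435 to 138301967, had 17.9, 19.6 and 21.7 TPM in Olfr1507, 15.98, 17.6 and 15.9 TPM in Olfr73 and 11.1, 10.3 and 11.2 TPM in Olfr160. All its groups were apart, and it differed by 1.15 ± 0.14 (edgeR adjusted p = 0.000247). Kifap3 had 75.9, 66.4 and 63.1 TPM in Olfr1507, 47.1, 44.95 and 46.2 TPM in Olfr73 and 29.5, 39.1 and 49.6 TPM in Olfr160, where Olfr160 library 3 lay above the Olfr73 libraries.

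The 2 dynein-2 genes were both higher in Olfr1507 than in Olfr160 with TMM, and both lower with transduction-list scaling, but differed from each other in Olfr73. Dync2h1, the motor heavy chain, on chromosome 9 from 6928503 to 7184446, had 137, 131 and 113 TPM in Olfr1507, 145, 149.9 and 194 TPM in Olfr73 and 95.3, 82.6 and 106 TPM in Olfr160. In TPM it was highest in Olfr73, whose libraries overlapped with none of the others. In normalised CPM its Olfr73 libraries, at 346, 364 and 493, overlapped with those of Olfr1507, at 352, 356 and 308. Dync2li1, the light intermediate chain that stabilises the heavy chain, on chromosome 17 from 84626496 to 84655588, had 183, 171 and 179 TPM in Olfr1507, 93.4, 102 and 122 TPM in Olfr73 and 94.8, 99.99 and 111 TPM in Olfr160. Olfr1507 stood above both other groups, which overlapped. For Olfr1507 over Olfr160 the differences were 0.68 ± 0.15 for Dync2h1 (edgeR adjusted p = 0.0062) and 1.00 ± 0.13 for Dync2li1 (0.000308). For Olfr1507 over Olfr73 they were -0.24 ± 0.15 (0.242) and 0.89 ± 0.13 (edgeR adjusted p = 0.00108), and for Olfr73 over Olfr160 0.92 ± 0.16 (0.00635) and 0.11 ± 0.13 (edgeR adjusted p = 0.587).

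Of the remaining pair, Arl13b, the GTPase of the ciliary membrane that activates ARL3, was higher in Olfr1507 than in both other groups with TMM, while with transduction-list scaling it differed by -0.14 from Olfr160 and -0.28 from Olfr73. It had 51.8, 33.8 and 34.4 TPM in Olfr1507, 32.1, 17.5 and 28.6 TPM in Olfr73 and 14.3, 15.8 and 20.9 TPM in Olfr160. Every Olfr1507 library was above the others, with Olfr73 and Olfr160 overlapping, and the difference of Olfr1507 over Olfr160 was 1.36 ± 0.22, or 2.56-fold (edgeR adjusted p = 0.00117). Over Olfr73 it was 0.75 ± 0.22 (edgeR adjusted p = 0.0281). That call was lost without Olfr1507 library 1 (0.107) or 2 (0.0534), without Olfr73 library 1 (0.0585) or 2 (0.0704), with library size alone (0.137) and with limma on log2(TPM + 1) (0.101) or log2(TPM + 0.1) (0.0965). Tulp3, which carries membrane receptors into cilia together with IFT-A, had 23.6, 19.5 and 18.5 TPM in Olfr1507, 28.8, 19.8 and 23.3 TPM in Olfr73 and 13.1, 17.2 and 23.8 TPM in Olfr160. All its groups overlapped, and it differed by 0.53 ± 0.23 (edgeR adjusted p = 0.088).

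Ratios between genes within a library do not depend on how libraries are scaled, and 5 of them were taken after the values were seen, so they are given as a description. The ratio of Dync2h1 to Dync2li1 TPM was 0.751, 0.768 and 0.633 in Olfr1507, 1.56, 1.46 and 1.60 in Olfr73, and 1.01, 0.826 and 0.954 in Olfr160, so that no groups overlapped. That of Ttc30b to Ift88 was 3.26, 3.15 and 2.42 in Olfr1507, 1.21, 1.25 and 1.17 in Olfr73, and 1.28, 1.48 and 1.47 in Olfr160, again without overlap. That of Ift20 to Ift80 was 0.367, 0.458 and 0.510 in Olfr1507, 1.08, 0.612 and 0.839 in Olfr73, and 1.59, 0.974 and 0.883 in Olfr160, with every Olfr1507 library below the rest and the other groups overlapping. The ratio of Kif3a to Kif3b averaged 5.87 in Olfr1507, 7.01 in Olfr73 and 6.03 in Olfr160, and all groups overlapped. That of Ttc30b to Ttc30a1 averaged 19.99 in Olfr1507, 13.6 in Olfr73 and 12.01 in Olfr160, where Olfr1507 was apart from Olfr160 and overlapped with Olfr73. As shares of the summed TPM of the 39 genes, the complexes differed between groups by a few percentage points. IFT-A took 19.9 ± 0.122% in Olfr1507, 19.0 ± 0.288% in Olfr73 and 19.1 ± 0.297% in Olfr160 (mean ± SD, n = 3). Core IFT-B took 29.7 ± 0.687%, 25.8 ± 0.801% and 29.5 ± 0.787% in the same groups, lower in every Olfr73 library than in all others. Peripheral IFT-B took 10.1 ± 0.205%, 11.9 ± 0.543% and 11.7 ± 0.248%, lower in every Olfr1507 library than in all others. The BBSome subunits took 21.0 ± 0.141%, 22.4 ± 0.549% and 20.4 ± 0.479%, and the 6 motor genes 12.1 ± 0.362%, 12.99 ± 0.139% and 12 ± 0.346%. With 3 libraries a group, an exact two-sided permutation test of such a ratio or share cannot go below 0.1.

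**Figure D3:**
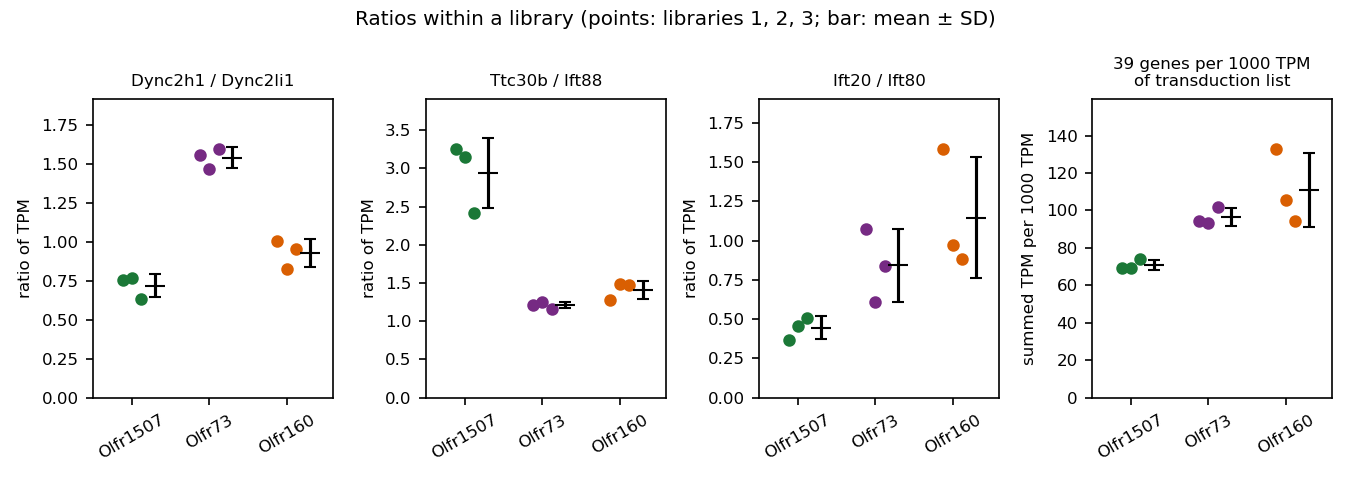
Ratios of TPM within each library (points in the order of libraries 1, 2 and 3) with mean ± SD of the group (n = 3). The ratio of Dync2h1 to Dync2li1 is highest in Olfr73, that of Ttc30b to Ift88 highest in Olfr1507, that of Ift20 to Ift80 lowest in Olfr1507, and the summed TPM of the 39 genes per 1000 TPM of the olfactory transduction list lowest in Olfr1507.

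The direction of the differences depended on what the libraries were scaled to. The genes of olfactory transduction, the cascade from receptor to ion channel that sits in the same cilia, differed by more than the IFT and BBSome genes. Of 16 such genes 16 were higher in Olfr1507 than in Olfr160 (median 1.54), 11 in Olfr1507 than in Olfr73 (median 1.05) and 5 in Olfr73 than in Olfr160 (median 0.50), and the channel gene Cnga2 and the ciliary gene Stoml3 are examples at 1.80 and 1.87 for Olfr1507 over Olfr160. Set against that list, the 39 genes summed to 70.9 ± 2.66 TPM per 1000 TPM of transduction genes in Olfr1507, 96.5 ± 4.86 in Olfr73 and 111 ± 19.9 in Olfr160 (mean ± SD, n = 3). The Olfr1507 libraries, at 69.2 to 73.97, were all below the others. Much of the summed TPM of that list came from Stoml3 and Omp. In Olfr1507, Stoml3 had 33983, 37540 and 34986 TPM, against a mean of 88330 TPM for the sum of the list. With libraries scaled to the transduction list, 0 of the 39 genes were higher and 30 lower in Olfr1507 than in Olfr160, where 83.4% of all genes were lower and 0.713% higher. For Olfr1507 over Olfr73 that scaling gave 1 higher (Ttc30b) and 20 lower (1.77% and 62.3% of all genes), and for Olfr73 over Olfr160 0 higher and 1 lower (0.732% and 16.4%). The medians became -0.55, -0.53 and -0.05, and those of all genes -1.69, -1.17 and -0.55. When scaled by library size alone, Olfr1507 had 26 higher genes and 1 lower than Olfr160 (8.19% and 38.2% of all genes), with a median of 0.54 against -0.56. That scaling gave 11 higher and 2 lower for Olfr1507 over Olfr73 (6.38% and 28.7%) and 12 higher and 1 lower for Olfr73 over Olfr160 (5.23% and 11.8%), with medians of 0.17 and 0.35 against -0.47 and -0.12 for all genes. Relative to the median of all genes, the median of the 39 was higher for Olfr1507 over Olfr160 by 1.10 under TMM, by 1.10 under library size and by 1.14 under the transduction list.

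**Figure D4:**
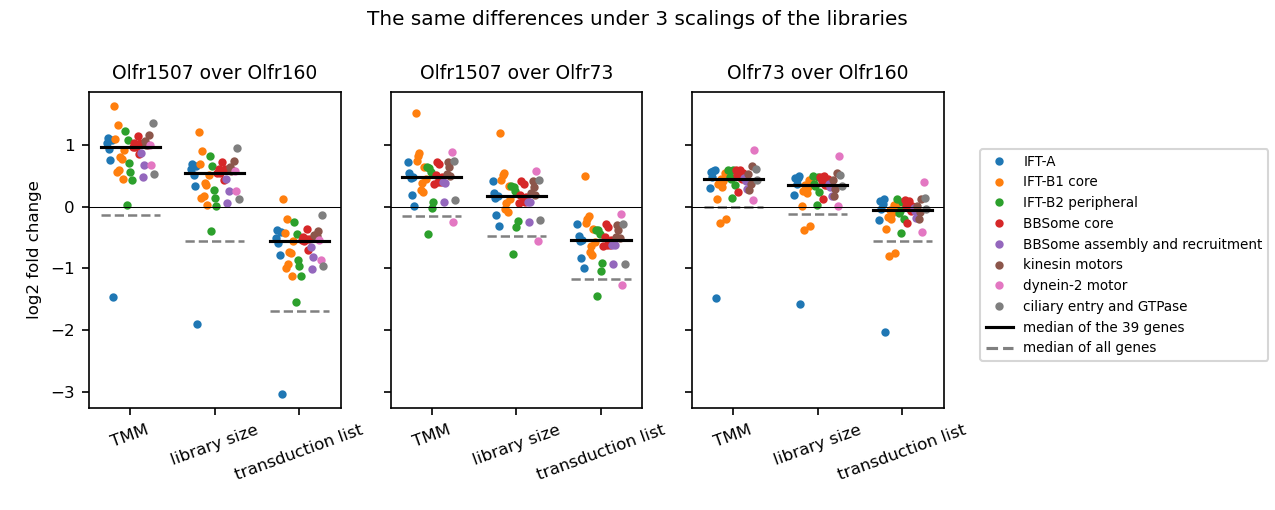
Log2 fold changes of the 39 genes (points, coloured by role) in the 3 comparisons under TMM, library size alone and scaling to the olfactory transduction list; solid lines are the median of the 39 genes and dashed lines that of all genes tested. The medians of both move down together from left to right in each panel, and for Olfr1507 over Olfr160 that of the 39 genes turns from 0.96 with TMM to -0.55 with the transduction list.

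The Olfr160 libraries differed among themselves along with the share of the tagged receptor, which was 2.08% in library 1, 4.54% in library 2 and 10.1% in library 3. Of the 39 genes, 33 were highest in library 3 among the Olfr160 libraries, and their median log2 level relative to the mean of all 9 libraries was -0.60, -0.55 and -0.26. The transduction list gave -1.11, -0.67 and -0.21, and sustentacular and gland markers 2.55%, 2.88% and 1.5% of counts; their part in the result was not tested. The comparison of Olfr73 with Olfr160 varied with the libraries used: its 17 calls became 2 without Olfr160 library 1, 2 without library 2 and 21 without library 3. They became 4 without Olfr73 library 2, 7 without Olfr73 library 3, and 10 or 11 without Olfr1507 library 2 or 3, which enter through the shared spread. Bbs1 and Dync2h1 were the calls kept in all 9 fits with a library left out, and RLE size factors gave 12 calls. For Olfr1507 over Olfr160 all 33 calls were kept when any of the 9 libraries was left out, and for Olfr1507 over Olfr73 14 of 24 were, while Ift122, Wdr19, Wdr35, Ift80, Bbs2, Bbs4, Bbs5, Kif3b, Kif17 and Arl13b lost the call in at least 1 fit. The count of genes higher in Olfr1507 than in Olfr73 was lowest, at 16, without Olfr1507 library 2. Within groups, the 39 genes varied less than genes at large. The median SD of log2 CPM was 0.0977 in Olfr1507, 0.174 in Olfr73 and 0.190 in Olfr160 for the 39, and 0.213, 0.315 and 0.310 for all genes tested, which include many of lower counts.

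**Figure D5:**
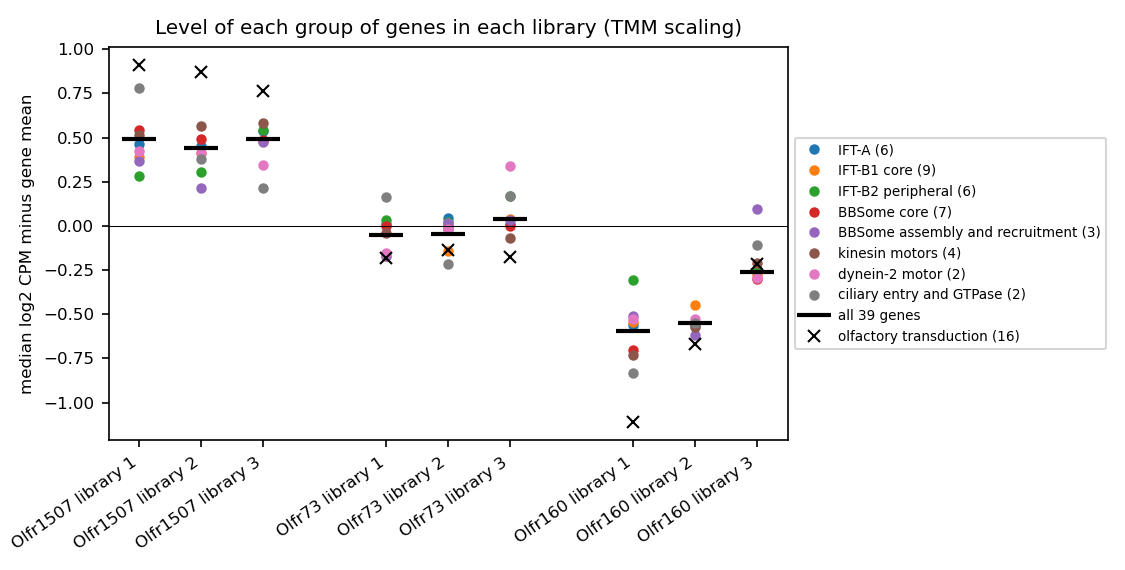
Median over the genes of each role group (number of genes in the legend) of log2 normalised CPM minus the gene's mean over the 9 libraries, for each library under TMM scaling. All role groups lie above 0 in the Olfr1507 libraries, on both sides of 0 in the Olfr73 libraries and below 0 in the Olfr160 libraries except BBSome assembly and recruitment in library 3 (0.0969), in an order that turns with transduction-list scaling for Olfr1507 over Olfr160. Library 3 is the highest of the Olfr160 libraries, and crosses mark the 16 olfactory transduction genes.

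Markers of multiciliated respiratory cells, which also use IFT, were followed because such cells line the same cavity. The 12 markers summed to 0.212% to 0.223% of counts in Olfr1507, 0.182% to 0.207% in Olfr73 and 0.112% to 0.143% in Olfr160, but they did not move together, and their part in the results was not tested. For Olfr1507 over Olfr160, 7 were higher and 3 lower with TMM (20.7% and 27.7% of all genes). Scaling to the transduction list gave 0 higher and 8 lower (0.713% and 83.4% of all genes). With TMM the lower ones were Sntn, a ciliary tip gene, at -7.42, the outer arm dynein gene Dnah5 at -3.35 and Cfap43 at -3.18. Sntn had 0.110, 0.0600 and 0.210 TPM in Olfr1507, 12.8, 3.32 and 7.09 TPM in Olfr73 and 48.3, 12.5 and 15.1 TPM in Olfr160. Among the higher ones were Ccdc40 (1.54), Dnali1 (1.27) and Tekt1 (1.19).

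Other genes of the cilium, from lists drawn up with earlier results of these data known, had positive medians for Olfr1507 over Olfr160 with TMM and negative ones with the transduction list. Of 18 tested further subunits and partners of IFT, the BBSome and the motors (19 listed), 12 were higher and 0 lower, with a median of 0.67. For this list and those that follow, the shares over all genes with TMM were 20.7% higher and 27.7% lower. Wdpcp, a planar polarity effector, differed by 1.07 ± 0.13, the Rab-like gene Rabl2 by 0.90 ± 0.13, and Wdr60, an intermediate chain of dynein-2, by 0.81 ± 0.12 (edgeR adjusted p = 0.000202, 0.000593 and 0.000591). Of 20 transition zone genes, which build the gate at the ciliary base, 15 were higher and 0 lower (median 0.86), and Tmem67 was at 1.18, B9d2 at 1.07 and Tmem237 at 0.87. Of 12 genes of distal appendages and ciliary kinases, 9 were higher and 0 lower (median 0.73), with the kinase genes Mak at 0.86 and Cilk1 at 1.00 and the appendage gene Cep164 at 1.26. Genes for the traffic of lipid-modified cargo went both ways, with 4 of 8 higher and 2 lower. Arl3, the GTPase that releases such cargo, had 966, 962 and 921 TPM in Olfr1507, 450.3, 399.7 and 468 TPM in Olfr73 and 344, 381 and 435 TPM in Olfr160. Its Olfr1507 libraries were all above the others, and it differed by 1.48 ± 0.11 (edgeR adjusted p = 1.94e-05). The cargo carrier Pde6d was 1.75 and the related GTPase Arl2 -0.88. Of 14 tubulin and tubulin-modifying genes, 6 were higher, among them Tubb4b (1.11) and the deacetylase Hdac6 (1.17), and 3 lower, among them Tubb2a (-2.36). With library size alone 5, 12, 4, 3 and 5 genes were higher in these 5 lists (8.19% of all genes). The counts of lower genes were then 1, 0, 0, 2 and 4 (38.2% of all genes). With the transduction list 0 were higher in each (0.713% of all genes), and 14, 14, 8, 4 and 12 were lower (83.4%). For Olfr1507 over Olfr73 with TMM, 5, 8, 3, 3 and 6 genes of these lists were higher and 0, 2, 0, 1 and 3 lower (14.5% and 19.9% of all genes). For Olfr73 over Olfr160, 3, 9, 3, 0 and 4 were higher and 0, 0, 0, 0 and 3 lower (7.45% and 10.5%).

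RFX factors bind the X-box of ciliary gene promoters, and FOXJ1 acts with them in cells with motile cilia. Of 7 such genes, 3 were higher and 1 lower in Olfr1507 than in Olfr160 with TMM (20.7% and 27.7% of all genes). Scaling to the transduction list gave 0 higher and 5 lower (0.713% and 83.4% of all genes). Rfx2 had 81.9, 71.8 and 91.4 TPM in Olfr1507, 56.1, 58.7 and 46.7 TPM in Olfr73 and 49.2, 35.9 and 49.5 TPM in Olfr160, with Olfr1507 above the rest and a difference of 1.06 ± 0.15 (edgeR adjusted p = 0.000497). Foxj1 differed by 1.26 ± 0.23 (edgeR adjusted p = 0.00222). Rfx4 differed by 0.64, short of the threshold, while for Olfr1507 over Olfr73 it was 2.08 ± 0.39 (edgeR adjusted p = 0.00388).

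The letters of an X-box were searched in RefSeq promoters (250 bases before to 50 after the start, GRCm38.p6), as GTTNCC, 1 to 4 bases and GNAAC on both strands. A promoter was found for 34 of the 39 genes, all but Dync2li1, Ift122, Ift80, Ift81 and Ttc30b. The motif was in 4 of the 34 (11.76%), against 579 of the 27025 genes searched in the promoter table (2.14%). That search left out 1 chromosome, which holds none of the 39 genes. A match is a run of letters and not a shown binding site. The 4 matches are printed because they show how the motif differs between genes of 4 role groups, the BBSome, the kinesins, and core and peripheral IFT-B; capitals mark the motif, with 20 bases on each side but none past the RefSeq start, 5′ to 3′ on the strand of the gene. They lie at chr3:36613477-36613530 (Bbs7, minus strand), chr4:138262158-138262210 (Kif17, plus strand), chr6:38381471-38381523 (Ttc26, plus strand) and chr16:49699214-49699266 (Ift57, plus strand).
Bbs7: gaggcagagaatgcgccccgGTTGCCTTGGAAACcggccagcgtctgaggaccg
Kif17: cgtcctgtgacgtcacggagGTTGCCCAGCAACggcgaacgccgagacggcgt
Ttc26: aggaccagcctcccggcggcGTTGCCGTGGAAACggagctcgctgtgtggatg
Ift57: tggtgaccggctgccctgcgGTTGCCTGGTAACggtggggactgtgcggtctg
The last base of the motif lies 108, 61, 20 and 48 bases before the RefSeq start in the same order. RefSeq and GENCODE starts differ, and by the GENCODE gene spans the motifs of Kif17, Ttc26 and Ift57 lie inside the gene. Among the 4, Bbs7, Kif17 and Ttc26 were higher in Olfr1507 than in Olfr160, at 1.14, 1.15 and 0.92, while Ift57 reached at most 3.28 TPM in any library.

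The edgeR fit on counts with TMM and the limma fits on TPM, which use no TMM factors, differed in what they called. With limma on log2(TPM + 1), 13 of the 24 genes higher in Olfr1507 than in Olfr73 lost the call, among them Ift122, Wdr35, Ift46, Ift172, Bbs2, Kif3a and Kif17, and Bbs1 turned, which left 10. For Olfr1507 over Olfr160, Ift22, Ift46, Traf3ip1 and Bbs1 lost the call. On counts with library size alone, 13 of the same 24 also lost the call, Ift122, Wdr35, Bbs2, Kif3a and Kif17 among them. The fits on TPM differ from the main fit in unit, scaling and test, and the part of each was not tested. Bbs1, the subunit that binds ARL6, had 39.9, 36.4 and 38.01 TPM in Olfr1507, 44.4, 46.3 and 40.5 TPM in Olfr73 and 39.3, 23.4 and 26.6 TPM in Olfr160, so that Olfr160 library 1 lay within the Olfr1507 range and every Olfr73 library lay above it. Its counts gave 0.48 ± 0.10 for Olfr1507 over Olfr73 (edgeR adjusted p = 0.00781), while log2(TPM + 1) gave -0.19. The effective transcript length that its counts and TPM imply averaged 3977 bases in Olfr1507, 2763 bases in Olfr73 and 2962 bases in Olfr160. The same lengths were 5345, 4493 and 4616 bases for Ift172. In TPM, every Olfr1507 library was above every Olfr160 library for 32 of the 39 genes (18.8% of all genes) and above every Olfr73 library for 21 (15.5%).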

How the data were processed

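Expected counts and TPM per gene were deposited for 9 libraries. Per the submitters' processing notes, the tools were STAR 2.6.1, RSEM 1.3.1 and DESeq2, with the build mm10. No source used here names the annotation. The authors' expected counts were rounded to whole numbers. They were filtered with filterByExpr, scaled by TMM and tested with edgeR 4.0.16 (robust quasi-likelihood, 1 mean per group, all 9 libraries) in R 4.3.3, with Benjamini-Hochberg adjustment over 16399 genes. The deposited TPM gave levels and, as log2 values, alternatives in limma 3.58.1; DESeq2 1.42.0 was another. CPM were computed from the deposited counts. Positions are from GENCODE M21 on mm10, with 98.7% of the table's transcript IDs matched, and promoters from RefSeq. The fit was tested on simulated data. In each role group, values by library are given for the genes with the highest mean TPM and with the largest and smallest difference of Olfr1507 over Olfr160, from each other list up to 3 genes with the lowest adjusted p over the 3 groups were named, and some further genes were named after their values were seen. The 39 genes and the other lists were chosen with earlier results of these data known.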

Additional observations from a re-analysis of the deposited data

How the results depend on the processing

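The counts of higher and lower genes and the medians moved most with the scaling, and next with the libraries used for Olfr73 over Olfr160. With transduction-list scaling, Olfr1507 over Olfr160 gave 0 higher, 30 lower and a median of -0.55, Olfr1507 over Olfr73 gave 1 higher, 20 lower and -0.53, and Olfr73 over Olfr160 gave 0 higher, 1 lower and -0.0545. With library size alone, 1 was lower and the median was 0.54 for Olfr1507 over Olfr160, 11 were higher, 2 lower and the median 0.17 for Olfr1507 over Olfr73, and 1 was lower for Olfr73 over Olfr160. For Olfr1507 over Olfr160, 1 gene was lower (Ttc21b) with a filter of 5 CPM in 3 libraries, with DESeq2, with limma on log2(TPM + 1) and log2(TPM + 0.1), and with only the 6 libraries compared. Its medians were 0.69 and 0.70 with limma on log2(TPM + 1) and log2(TPM + 0.1), and 0.72 with Olfr160 library 3 alone. For Olfr1507 over Olfr73, the median was 0.41 with the filter of 5 CPM, 10 genes were higher with medians of 0.26 and 0.29 with limma on log2(TPM + 1) and log2(TPM + 0.1), and 13 were higher at an adjusted p of 0.01. For Olfr73 over Olfr160, 3 were lower with DESeq2 and 1 with either limma fit, 4 were higher with only the 6 libraries compared, 2 at an adjusted p of 0.01, and 0 with a median of 0.26 with Olfr160 library 3 alone, which was chosen after seeing the data and leaves Olfr160 with 1 library, assumed to vary like the other groups. Leaving out each library in turn gave 33 to 35 higher and 0 to 1 lower with medians of 0.84 to 1.07 for Olfr1507 over Olfr160, 16 to 27 higher and 0 lower with medians of 0.45 to 0.53 for Olfr1507 over Olfr73, and 2 to 21 higher and 0 to 1 lower with medians of 0.39 to 0.58 for Olfr73 over Olfr160. The cause of these changes was not tested.

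A gene is listed here as turned with transduction-list scaling if its sign changed and it was called there or under TMM. Sign changes of genes called in neither fit are left out. The log2 fold changes of the listed genes with that scaling follow. For Olfr1507 over Olfr160 they were Ift122 -0.59, Ift140 -0.79, Ift43 -0.50, Wdr19 -0.41, Wdr35 -0.38, Ift22 -0.75, Ift27 -0.43, Ift46 -0.99, Ift52 -1.12, Ift74 -0.20, Ift81 -0.74, Ift88 -0.93, Ttc26 -0.56, Ift20 -1.55, Ift80 -0.24, Ift172 -0.44, Cluap1 -0.87, Traf3ip1 -0.96, Bbs1 -0.52, Bbs2 -0.69, Bbs4 -0.48, Bbs5 -0.52, Bbs7 -0.36, Bbs9 -0.55, Ttc8 -0.54, Arl6 -0.65, Bbs10 -0.81, Bbs12 -1.01, Kif3a -0.46, Kif3b -0.47, Kifap3 -0.49, Kif17 -0.39, Dync2h1 -0.86, Dync2li1 -0.53, Tulp3 -0.96 and Arl13b -0.14. For Olfr1507 over Olfr73 they were Ift122 -0.55, Ift140 -0.83, Ift43 -0.28, Wdr19 -0.53, Wdr35 -0.47, Ift22 -0.78, Ift27 -0.27, Ift46 -0.19, Ift52 -0.36, Ift74 -0.15, Ift81 -0.63, Ift88 -0.74, Ttc26 -0.57, Ift80 -0.37, Ift172 -0.38, Cluap1 -0.45, Bbs1 -0.54, Bbs2 -0.62, Bbs4 -0.50, Bbs5 -0.61, Bbs7 -0.33, Bbs9 -0.28, Ttc8 -0.64, Arl6 -0.62, Bbs12 -0.93, Kif3a -0.48, Kif3b -0.38, Kifap3 -0.29, Kif17 -0.51, Dync2li1 -0.12, Tulp3 -0.92 and Arl13b -0.28. For Olfr73 over Olfr160 they were Ift122 -0.0403, Ift74 -0.0545, Ift172 -0.0649, Bbs2 -0.0765 and Bbs7 -0.0363. In that comparison 36 of the 39 genes were above 0 with TMM and 15 with transduction-list scaling, so further genes changed sign without a call. Bbs1 for Olfr1507 over Olfr73 turned to -0.19 with limma on log2(TPM + 1) and to -0.20 with log2(TPM + 0.1).

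Replicate numbers are shared by the groups, but the deviations of same-numbered libraries correlated at -0.225 to 0.141, so the numbers were not taken as pairs. With the replicate block, 33, 25 and 18 genes were higher and 0 lower in the 3 comparisons, Olfr1507 over Olfr160, Olfr1507 over Olfr73 and Olfr73 over Olfr160. Ttc21b and Ift57, at a few TPM, had the largest standard errors of the 39 genes, and a missed threshold there does not show that the groups are alike.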
